A study of Homo sapiens with 18 samples.

Results

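The genes described here are the KRAB zinc finger genes of the cluster on the short arm of human chromosome 19, next to the centromere, in bands p12 to p13.11. A list of 36 symbols, from ZNF101 at the outer end to ZNF254 at the inner end, was matched to the rows of the array table that carry exactly 1 gene symbol, and where a gene had several such rows the one with the highest mean over the arrays was taken. Of the 36 genes, 33 were measured, among 18417 genes with such a row. ZNF66 is not listed by the probe table, and ZNF98 and ZNF728 occur only in probe sets that carry several symbols. The rows were thus chosen by their mean over the arrays, the only measured value that entered the choice. The family itself was picked with results of these arrays known, so its counts are given as a description beside those of all genes tested.

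The cells were NCI-H1299, a line from a human non-small cell lung carcinoma that makes no p53 of its own, grown and transfected transiently with plasmids that also express green fluorescent protein from pIRES-2EGFP. RNA was taken 40 hours after transfection from sorted green cells and hybridized to Affymetrix Gene arrays, 18 in all. The first set holds experiments 0, 4 and 5, which the series calls independent transfections, each with empty vector, WTp53 (wild-type p53) and ΔNp53:WTp53, as the labels write a construct of both forms. The second set holds experiments d, e and f, called control experiments, each with empty vector, WTp53 and tethered WTp53; whether these were separate transfections is not stated, so that p-values of this set measure only the spread between its arrays. Every group has 3 arrays and comes from 1 cell line, and the p53 forms are expressed from a plasmid in cells without p53. On the tethered arrays the transfection field names ΔNp53:WTp53 while title and description name the tethered form, and the title was used.

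KRAB zinc finger proteins bind DNA through a tandem array of zinc fingers, and their KRAB domain recruits the corepressor TRIM28, which brings in the histone methyltransferase SETDB1 and heterochromatin protein. They are known for silencing retrotransposons and other repeats. The genes lie in clusters that grew by duplication, and the cluster next to the centromere of 19p expanded in primates. ZNF91 represses SVA elements and ZNF93 represses a class of LINE-1 elements; for most other members a target in these cells is not established. Close copies have similar transcripts, so the probes of one member can bind RNA of another, and values of neighbours are not fully separate measurements.

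The promoters show how alike the copies are. RefSeq promoters on GRCh38.p14, each running from 250 bases before to 50 bases after the start, were at hand for 28 of the 36 members. The octamer TCCAATCA, which contains a CCAAT box, occurred in 28 of these 28 windows, each time on the strand of the gene, with its first occurrence 30 to 88 bases before the start (median 82). In 15 members it occurred more than once. It occurred in 0 of 113 promoters of the zinc finger genes of 19q13, a separate group of clusters on the long arm, and in 440 of 27305 promoters of all genes (1.61%), both strands being searched. The octamer was chosen after these promoters had been read, so that its frequency is a description. The 250 bases before the start are shown for ZNF43, ZNF100, ZNF431 and ZNF724, which had the largest falls described later, and for ZNF708 and ZNF430, which each missed the threshold in a comparison of WTp53 with vector. Capitals mark TCCAATCA, and each sequence is read along the gene.
ZNF43: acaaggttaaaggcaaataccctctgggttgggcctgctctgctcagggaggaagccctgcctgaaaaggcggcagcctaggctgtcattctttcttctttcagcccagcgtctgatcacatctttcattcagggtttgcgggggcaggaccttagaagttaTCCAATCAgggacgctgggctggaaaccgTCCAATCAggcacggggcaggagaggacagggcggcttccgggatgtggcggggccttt
ZNF100: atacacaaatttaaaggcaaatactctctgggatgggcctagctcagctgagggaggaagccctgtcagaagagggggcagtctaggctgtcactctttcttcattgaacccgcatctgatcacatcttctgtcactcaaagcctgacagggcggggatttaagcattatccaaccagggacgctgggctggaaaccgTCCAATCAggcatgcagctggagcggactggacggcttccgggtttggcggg
ZNF431: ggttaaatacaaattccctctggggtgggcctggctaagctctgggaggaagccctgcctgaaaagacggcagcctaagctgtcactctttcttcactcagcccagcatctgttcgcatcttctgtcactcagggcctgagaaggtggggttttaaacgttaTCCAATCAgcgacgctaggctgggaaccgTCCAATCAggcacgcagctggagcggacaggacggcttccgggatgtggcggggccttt
ZNF724: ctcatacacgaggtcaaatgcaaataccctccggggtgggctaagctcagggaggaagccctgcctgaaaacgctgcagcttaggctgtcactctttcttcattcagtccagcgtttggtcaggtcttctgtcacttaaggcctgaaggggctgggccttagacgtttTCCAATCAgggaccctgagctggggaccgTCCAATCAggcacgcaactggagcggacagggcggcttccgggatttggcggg
ZNF708: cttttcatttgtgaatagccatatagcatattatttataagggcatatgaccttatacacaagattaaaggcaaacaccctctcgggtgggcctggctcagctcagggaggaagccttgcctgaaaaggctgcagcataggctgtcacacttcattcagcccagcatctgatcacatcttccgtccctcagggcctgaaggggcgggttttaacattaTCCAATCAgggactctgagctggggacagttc
ZNF430: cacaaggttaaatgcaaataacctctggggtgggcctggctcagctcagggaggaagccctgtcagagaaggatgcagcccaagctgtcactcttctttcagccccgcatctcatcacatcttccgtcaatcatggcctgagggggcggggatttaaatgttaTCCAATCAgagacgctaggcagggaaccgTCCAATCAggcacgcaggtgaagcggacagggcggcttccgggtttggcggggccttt
These windows lie at chr19:21836183-21836432 (ZNF43, minus strand), chr19:21767580-21767829 (ZNF100, minus strand), chr19:21141790-21142039 (ZNF431, plus strand), chr19:23250395-23250644 (ZNF724, minus strand), chr19:21329411-21329660 (ZNF708, minus strand) and chr19:21020407-21020656 (ZNF430, plus strand). ZNF430 and ZNF431 both carry the octamer more than once; whether its number goes with the size of a change was not tested.

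Other short elements were searched in the same windows. CCAAT alone, which lies inside the octamer, occurred in 28 of 28 members, in 39.8% of the 19q13 promoters and in 35.7% of all promoters. A further octamer chosen in the same way, TGTCACTC, occurred in 25 of 28 members, in 0 of 113 promoters of 19q13 and in 1.36% of all. An E2F-type site, written TTTCCCGC or TTTGGCGC, occurred in 5 members (17.9%) against 2.31% of all promoters. The CHR element TTTGAA of cell cycle genes occurred in 1 member (3.57%) against 15.4% of all promoters. The p53 decamer, a single arm of its response element, occurred in 0 of 28 members and in 6.54% of all promoters, which says only that those letters are not in these windows. The median GC content was 56.0% in the members (50.7% to 63.7%) and 58.3% over all promoters.

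Genes outside the cluster that carry TCCAATCA were counted as well, and the relation of the octamer to the values was not tested. Of 220 other tested genes with the octamer, 26.4% were lower and 8.64% higher with WTp53 than with vector in the first set. Of the 14239 tested genes with a promoter in the table, 18% were lower and 15.6% higher. With ΔNp53:WTp53 34.1% of the 220 were lower and 11.4% higher than with vector, against 22.1% and 16.3%. In the second set 31.4% were lower and 13.2% higher with WTp53, against 20% and 18.1%. With tethered WTp53 42.3% were lower and 13.6% higher than with vector, against 28% and 22%. In all, 412 promoters of other genes hold the octamer, measured or not. Of these, 43 carry zinc finger symbols, of which 33 were measured. With WTp53 against vector, 19 of the 33 were lower and 4 higher in the first set (median −0.70), and 18 were lower and 4 higher in the second (median −0.21). With tethered WTp53 against WTp53, 6 of the 33 were lower and 10 higher (median 0.07). The 6 were ZNF107, ZNF138, ZNF267, ZNF519, ZNF680 and ZNF92, from −0.21 in ZNF267 to −0.71 in ZNF680. The 10 reached 0.99 in ZNF555. In that comparison 18.5% of all tested genes with a promoter were lower and 15.2% higher. The 19q13 zinc finger genes held the octamer in 0 of 113 promoters. Of those measured, 67.7% were lower and 8.06% higher with WTp53 in the first set. The members' own values are given next, and the differences between these groups of genes and the members were not tested. For TGTCACTC the 174 other tested genes were lower in 21.8% and higher in 16.1% of cases with WTp53 in the first set. With ΔNp53:WTp53 21.8% were lower and 15.5% higher than with vector. In the second set 27% were lower and 17.2% higher with WTp53. With tethered WTp53 23% were lower and 21.3% higher than with vector, where all tested genes with a promoter were lower in 28% and higher in 22%.

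Most of the measured cluster was lower with wild-type p53 in the first set. With WTp53, 29 of 33 members were lower than with vector and 0 were higher, at an adjusted p under 0.05 in limma, while 16.6% of all genes tested were lower and 15.2% higher. The median log2 difference over the 33 members was −1.02 (range −1.93 to 0.03), against 0.02 over all genes. In 18 of the members the fall was at least 2-fold, which 555 of the 18417 genes reached. The 3 vector arrays lay above the 3 WTp53 arrays without overlap in 29 members, against 24.4% of all genes.

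**Figure D1:**
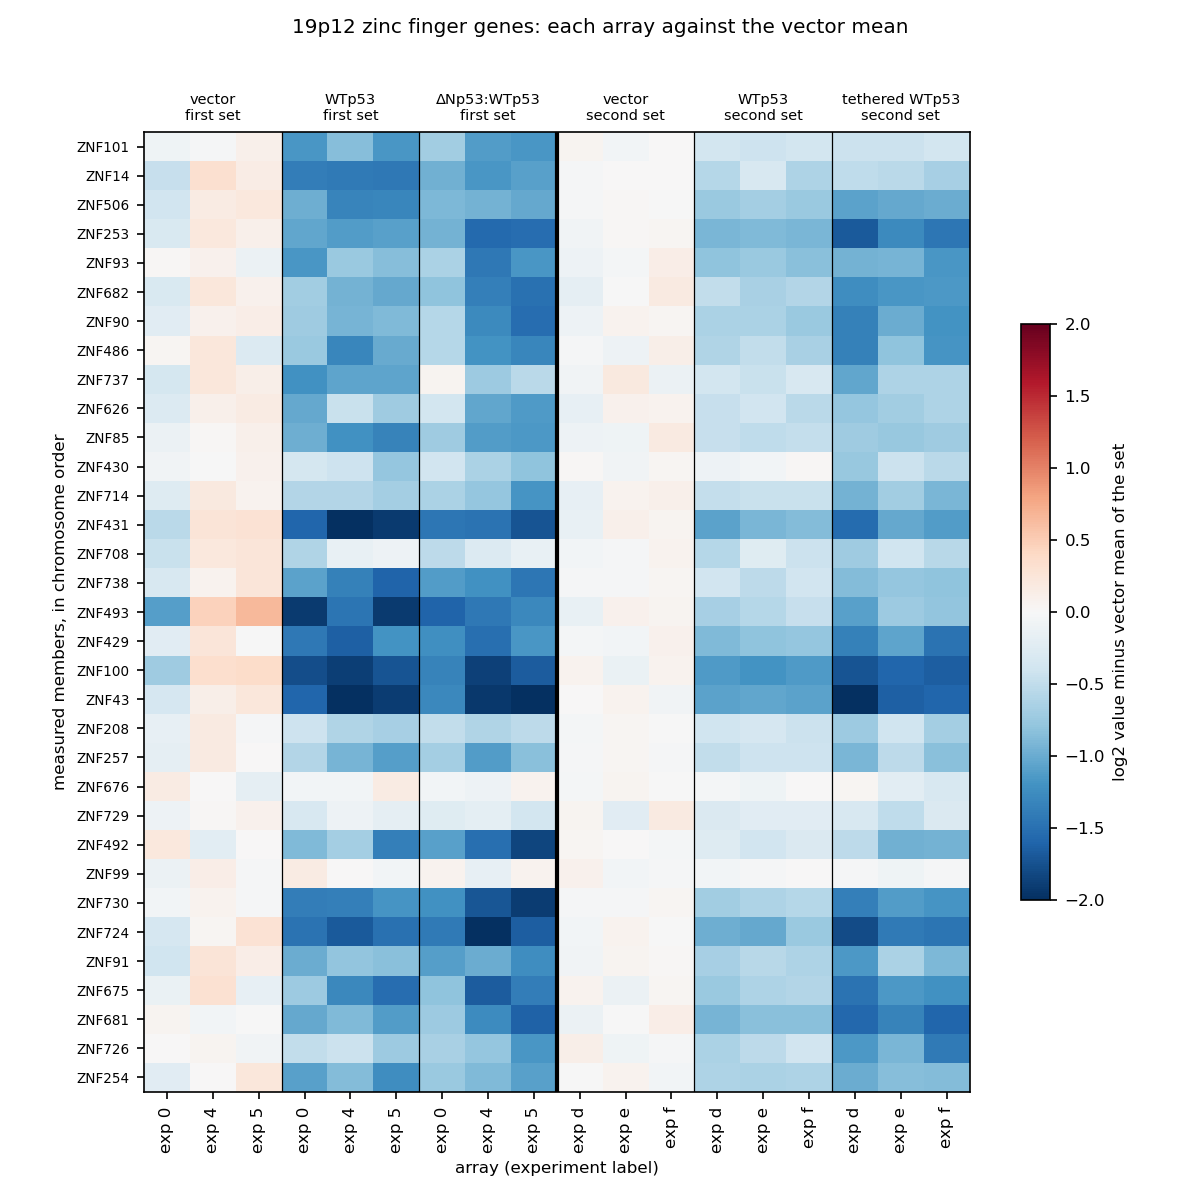
Log2 value of each of the 33 measured members (rows, in chromosome order) on each of the 18 arrays (columns, by group and experiment) minus the vector mean of its set; values past the ends of the colour scale take its end colours. The p53 columns are blue for all rows except a few, among them ZNF676 and ZNF99, and the first set is darker than the second with WTp53.

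ZNF43, a KRAB zinc finger gene near the middle of the cluster, had the largest fall. Its log2 values were 5.64, 6.10 and 6.21 with vector and 4.40, 3.67 and 4.08 with WTp53 in experiments 0, 4 and 5. The groups did not overlap, and the difference was −1.93 ± 0.24 (SE, n = 3 per group), a 3.81-fold fall (limma adjusted p = 0.000267). ZNF431 read 5.39, 6.18 and 6.22 with vector and 4.34, 3.77 and 4.02 with WTp53. Again every WTp53 array lay below every vector array, with a difference of −1.89 ± 0.22 (adjusted p = 0.000207). ZNF100, the neighbour of ZNF43, read 6.81, 7.86 and 7.88 with vector and 5.74, 5.63 and 5.79 with WTp53. Its vector array of experiment 0 stood about a log2 unit below the other two, and the difference was −1.79 ± 0.26 (adjusted p = 0.000577). ZNF493 had the next fall (−1.76), with the widest error among the members (SE 0.37, adjusted p = 0.0051).

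**Figure D2:**
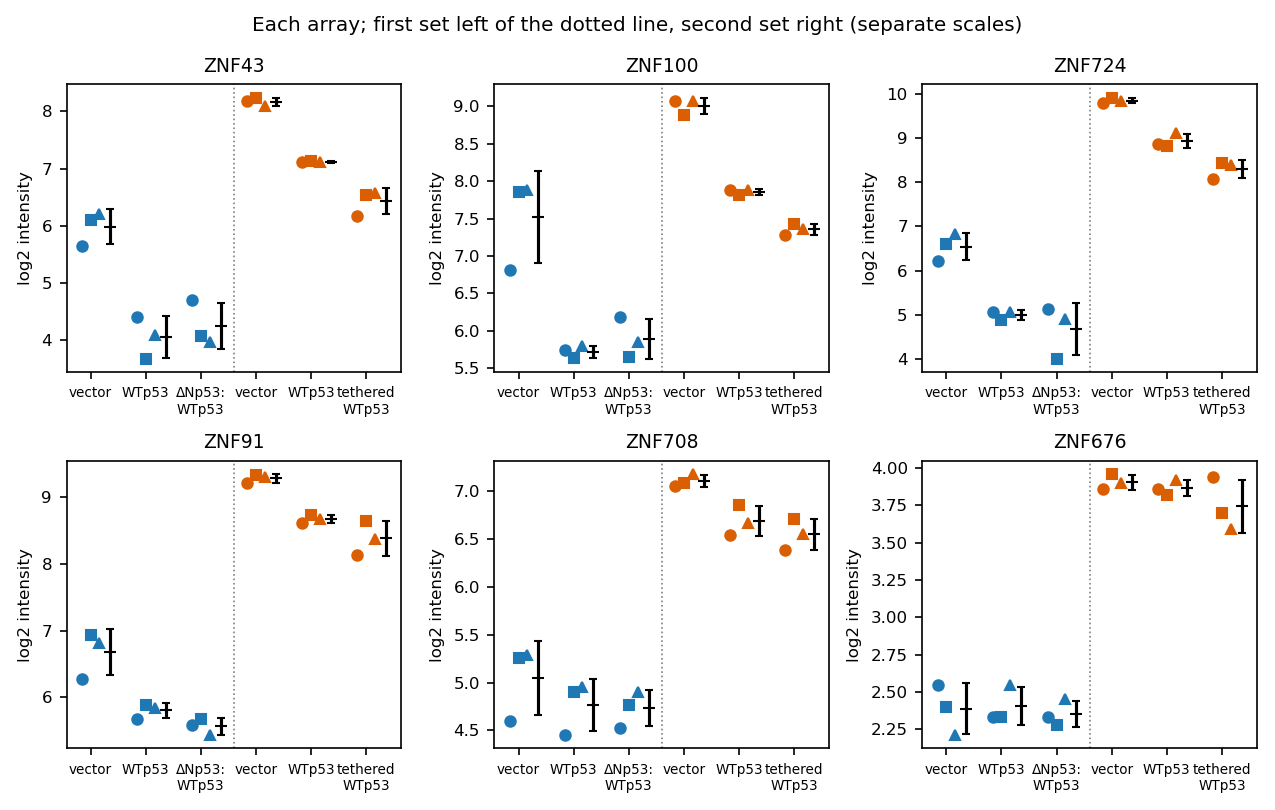
Log2 intensity on each array for ZNF43, ZNF100, ZNF724, ZNF91, ZNF708 and ZNF676, by group, with the mean and SD (n = 3) beside the points; circles are experiments 0 and d, squares 4 and e, triangles 5 and f, and the dotted line separates the sets, whose scales differ. In ZNF43, ZNF100, ZNF724 and ZNF91 both p53 groups of each set lie below the vector, in ZNF708 the groups of the first set overlap, and in ZNF676 all groups of a set overlap.

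The retrotransposon repressors fell as well. ZNF91, whose protein represses SVA elements, read 6.28, 6.94 and 6.82 with vector and 5.68, 5.89 and 5.84 with WTp53 in the first set. The arrays did not overlap and the difference was −0.88 ± 0.16 (limma adjusted p = 0.00212). ZNF93, the LINE-1 repressor, read 5.28, 5.35 and 5.15 with vector and 4.10, 4.52 and 4.41 with WTp53, a difference of −0.91 ± 0.18 (adjusted p = 0.00404). The ends of the cluster were lower too. ZNF14, near the outer end, read 6.80, 7.58 and 7.42 with vector and 5.88, 5.86 and 5.84 with WTp53, a difference of −1.41 ± 0.17 (adjusted p = 0.000249). ZNF254, at the inner end, read 5.97, 6.21 and 6.42 with vector and 5.11, 5.33 and 4.95 with WTp53, a difference of −1.07 ± 0.14 (adjusted p = 0.000415).

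The second set showed falls in the same comparison on other arrays. With WTp53, 29 of 33 members were lower than with vector and 0 were higher, against 18.9% of all genes lower and 17.9% higher. The median was −0.56 (range −1.15 to −0.02), against −0.02 over all genes. In 2 members the fall was at least 2-fold, which 61 of the 18417 genes reached. The arrays did not overlap in 29 members, against 24.8% of all genes. ZNF100 read 9.07, 8.88 and 9.07 with vector and 7.88, 7.81 and 7.88 with WTp53, in the order d, e and f. The WTp53 arrays lay together about a log2 unit below the vector, and the difference was −1.15 ± 0.06 (limma adjusted p = 1.62e-07). ZNF43 read 8.18, 8.24 and 8.10 with vector and 7.11, 7.13 and 7.11 with WTp53, a difference of −1.06 ± 0.09 (adjusted p = 6.06e-06).

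ZNF431 followed, with 7.36, 7.61 and 7.56 under vector and 6.44, 6.60 and 6.64 under WTp53 in the second set. Its groups did not overlap, and its difference was −0.95 ± 0.12 (limma adjusted p = 9.31e-05). ZNF91 went from 9.21, 9.34 and 9.30 to 8.62, 8.73 and 8.67, a difference of −0.61 ± 0.10 (adjusted p = 0.000768). ZNF93 went from 8.20, 8.26 and 8.44 to 7.50, 7.55 and 7.46, a difference of −0.80 ± 0.08 (adjusted p = 1.24e-05). For both repressors every WTp53 array lay below every vector array. ZNF14 went from 7.65, 7.69 and 7.69 to 7.11, 7.35 and 7.06 (−0.50 ± 0.07, adjusted p = 0.000242). ZNF254 went from 8.37, 8.45 and 8.32 to 7.77, 7.75 and 7.76 (−0.62 ± 0.05, adjusted p = 3.71e-06), so that both ends of the cluster were lower in this set too.

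The sets share no array, and 28 members were lower with WTp53 in both. Taken singly, the sets had 16.6% and 18.9% of all genes lower, and the overlap over all genes was not counted. Across the 33 members the difference of the first set and that of the second had a Pearson r of 0.77 and a Spearman rho of 0.68. The same values over 18417 genes were 0.79 and 0.66. These correlations are across genes, and members share sequence. The fall was larger in the first set for 29 of the 33. The difference between the sets' effects passed in 8 members, each with the larger fall in the first set, against 6.55% of all genes with a negative difference that passed. These were ZNF14, ZNF101, ZNF85, ZNF431, ZNF738, ZNF429, ZNF43 and ZNF730. The intensity scales of the sets differ, with array medians of 4.89 to 4.97 and 7.01 to 7.07, and 4 of the 8 also passed after joint quantile normalization of the 18 arrays. Leaving out 1 array at a time gave 4 to 13 members: 13 without the vector array of experiment 0, and 4 or 5 without the first set's vector arrays of experiments 4 or 5, its WTp53 array of experiment 4, or any vector or WTp53 array of the second set.

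**Figure D3:**
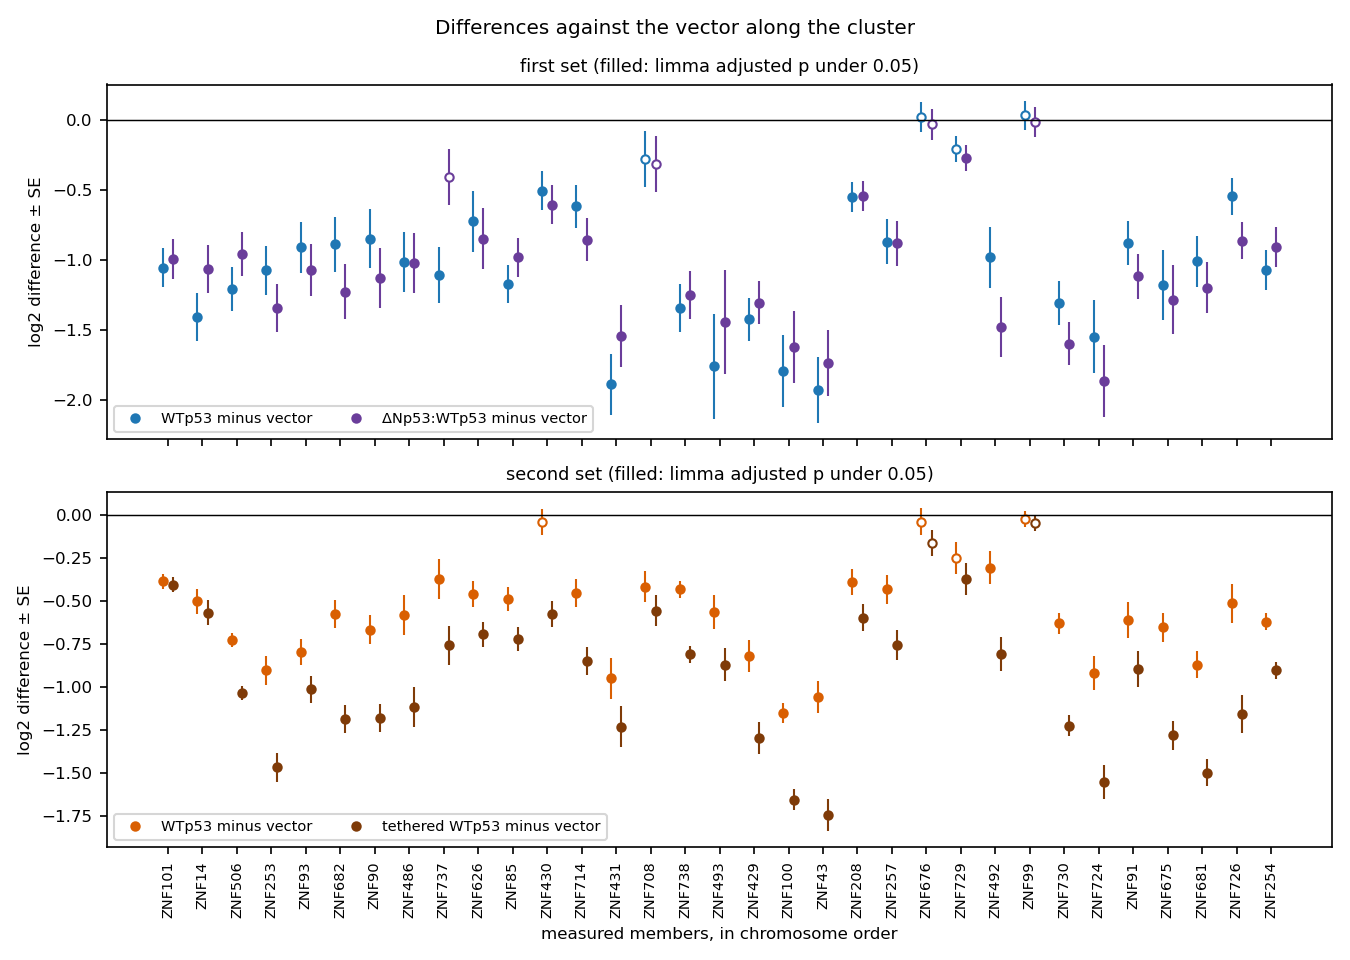
Log2 difference from the vector (± SE, 3 arrays per group) for the 33 measured members in chromosome order, first set above and second set below; filled points have a limma adjusted p under 0.05. In the first set WTp53 and ΔNp53:WTp53 lie close to each other, and in the second set tethered WTp53 lies below WTp53 in every member.

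The cluster was also lower with ΔNp53:WTp53. Against the vector arrays that the comparison of WTp53 shares, 29 of 33 members were lower and 0 higher, while 20.3% of all genes were lower and 15.7% higher. The median was −1.07 (range −1.87 to −0.01). At least 2-fold falls were found in 18 members and in 606 of the 18417 genes. The arrays of 29 members did not overlap, against 24.6% of all genes. ZNF724 had the largest fall, with 6.21, 6.59 and 6.83 under vector, 5.07, 4.87 and 5.05 under WTp53 and 5.13, 4.00 and 4.90 under ΔNp53:WTp53. Its array of experiment 4 was the lowest, and the difference from vector was −1.87 ± 0.26 (limma adjusted p = 0.00049). ZNF43 read 4.70, 4.06 and 3.97 with ΔNp53:WTp53, a difference from vector of −1.74 ± 0.24 (adjusted p = 0.000448). ZNF100 read 6.18, 5.65 and 5.85, a difference of −1.62 ± 0.26 (adjusted p = 0.000937). The arrays of both genes lay below all vector arrays.

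ZNF91 read 5.58, 5.68 and 5.43 with ΔNp53:WTp53, a difference from vector of −1.12 ± 0.16 (limma adjusted p = 0.000545). ZNF93 read 4.62, 3.83 and 4.10, a difference of −1.07 ± 0.18 (adjusted p = 0.00154). Thus both retrotransposon repressors were also lower with this construct, without overlap. ZNF14 read 6.30, 6.11 and 6.18 (−1.07 ± 0.17, adjusted p = 0.00103), and ZNF254 read 5.46, 5.31 and 5.11 (−0.91 ± 0.14, adjusted p = 0.00095).

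Set against WTp53 directly, ΔNp53:WTp53 gave no member past the threshold. In limma 0 of 33 members were lower and 0 higher, while 0.88% of all genes were lower and 1.56% higher. An unadjusted p under 0.05 was found in 3 of the 33 members and in 3308 of the 18417 genes. The members' median difference was −0.05, with a range from −0.50 in ZNF492 to 0.70 in ZNF737. The 95% intervals allow differences of some size: that of ZNF43 ran from −0.34 to 0.72, that of ZNF91 from −0.59 to 0.11 and that of ZNF93 from −0.58 to 0.25. ZNF737 read 5.36, 5.51 and 5.51 with WTp53 and 6.62, 5.84 and 6.02 with ΔNp53:WTp53. Those arrays did not overlap, but the difference of 0.70 ± 0.20 had an adjusted p of 0.103. In ZNF737 the ΔNp53:WTp53 arrays also overlapped those of vector (6.22, 6.80 and 6.68), and it was not among the 29 members lower than vector.

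Nearly all measured members were lower with tethered WTp53. Against vector in the second set, 31 of 33 members were lower and 0 higher, while 26.2% of all genes were lower and 21.6% higher. The median was −0.90 (range −1.74 to −0.05), against 0.00 over all genes. In 15 members the fall was at least 2-fold, which 161 of the 18417 genes reached. In 31 members the arrays did not overlap, against 28.2% of all genes. ZNF43 read 6.17, 6.54 and 6.58 with tethered WTp53, a difference from vector of −1.74 ± 0.09 (limma adjusted p = 6.64e-08). ZNF100 read 7.28, 7.42 and 7.36, a difference of −1.65 ± 0.06 (adjusted p = 5.38e-09). ZNF724 read 9.80, 9.92 and 9.84 with vector and 8.07, 8.44 and 8.40 with tethered WTp53, a difference of −1.55 ± 0.10 (adjusted p = 2.93e-07). In these 3 genes every tethered array lay below every vector array.

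ZNF91 read 8.13, 8.65 and 8.38 with tethered WTp53, a difference from vector of −0.90 ± 0.10 (limma adjusted p = 2.68e-05). ZNF93 read 7.36, 7.37 and 7.13, a difference of −1.01 ± 0.08 (adjusted p = 9.63e-07). At the ends of the cluster, ZNF14 read 7.17, 7.14 and 7.01 (−0.57 ± 0.07, adjusted p = 5.57e-05) and ZNF254 read 7.39, 7.53 and 7.51 (−0.90 ± 0.05, adjusted p = 1.04e-07). The falls of ZNF91, ZNF93, ZNF14 and ZNF254 were without overlap.

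Tethered WTp53 was also below WTp53 itself. In that comparison 23 of 33 members were lower and 0 higher, against 17.5% of all genes lower and 14.9% higher, and the remaining 10 had negative differences too. The median was −0.38 (range −0.69 to −0.02), against 0.02 over all genes, and in 24 members the arrays did not overlap, against 22.2% of all genes. When the spread was shared over all 18 arrays, 8 members passed in place of 23. ZNF43 read 7.11, 7.13 and 7.11 with WTp53 against 6.17, 6.54 and 6.58 with the tethered form, a difference of −0.69 ± 0.09 (limma adjusted p = 0.000339).

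ZNF726, toward the inner end, read 5.84, 5.96 and 6.10 with WTp53 and 5.33, 5.57 and 5.07 with tethered WTp53 (−0.64 ± 0.11, limma adjusted p = 0.00155). ZNF724 read 8.87, 8.83 and 9.11 with WTp53, above its tethered arrays, a difference of −0.63 ± 0.10 (adjusted p = 0.000843). Its call was lost with the spread shared over 18 arrays (adjusted p = 0.0714). The retrotransposon repressors missed the threshold here: ZNF91 differed by −0.29 ± 0.10 (adjusted p = 0.0573) and ZNF93 by −0.22 ± 0.08 (adjusted p = 0.0516). They did pass in 5 and 6 of 18 alternatives, among them centred array medians (adjusted p = 0.0305 and 0.0275) and, for both, leaving out tethered WTp53 of experiment e (adjusted p = 0.00355 and 0.046). The smallest differences were −0.02 in ZNF101 and in the dim ZNF99, followed by −0.07 ± 0.07 in ZNF14 (95% interval −0.23 to 0.09, adjusted p = 0.512). ZNF254, at the inner end, differed by −0.28 ± 0.05 (adjusted p = 0.00173), and this call too was lost with the spread shared over 18 arrays (adjusted p = 0.124).

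**Figure D4:**
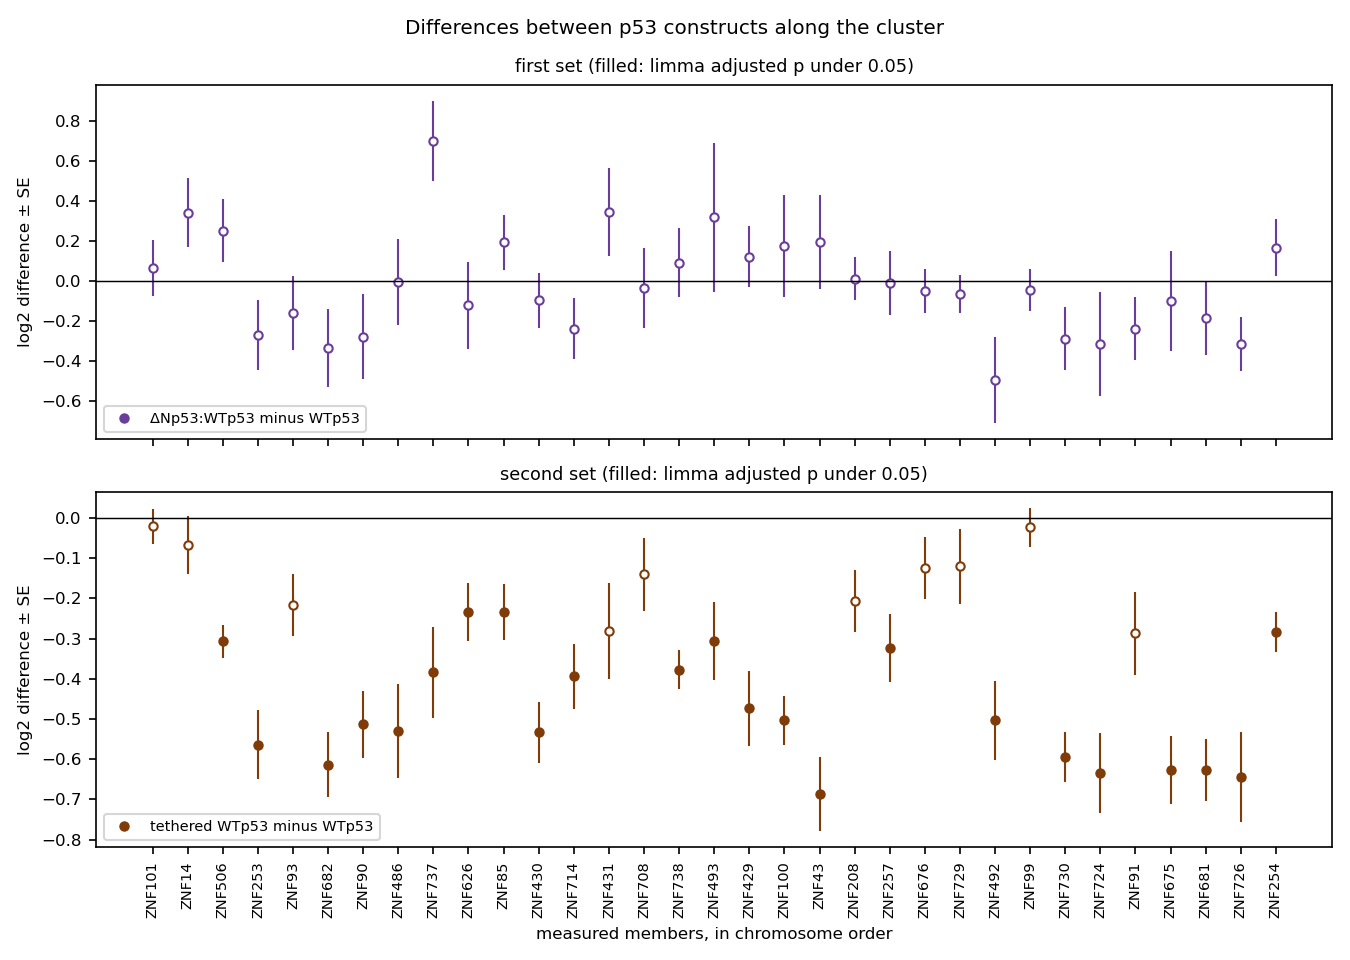
Log2 difference from WTp53 (± SE, 3 arrays per group) for the 33 measured members in chromosome order; ΔNp53:WTp53 of the first set above, tethered WTp53 of the second set below, filled where the limma adjusted p is under 0.05. The upper points scatter on both sides of 0 with none filled, and the lower points are all below 0 with 23 filled.

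The effects of the 2 constructs relative to WTp53 were compared in 1 fit of 18 arrays. The difference of effects passed in 1 member, ZNF737, where it was 1.08 ± 0.25 (limma adjusted p = 0.0281) and 1.08 (adjusted p = 0.0204) after joint quantile normalization, and 1.54% of all genes had a positive difference that passed. Over the 33 members the median difference of effects was 0.32, against −0.02 over all genes. It was positive in 32 of the 33 members and in 8416 of the 18417 genes. In limma 10 of the 33 had an unadjusted p under 0.05, as did 3263 of the 18417 genes. ZNF737 read 8.63, 8.89 and 8.58 with vector, 8.34, 8.26 and 8.38 with WTp53 and 7.66, 8.08 and 8.09 with tethered WTp53 in the second set. It thus lay below WTp53 on the tethered arrays (−0.38, adjusted p = 0.0253) and above WTp53 on the ΔNp53:WTp53 arrays. That 23 members passed with the tethered form and 0 with ΔNp53:WTp53 is not by itself a difference between the constructs, since the error was smaller in the second set. The call of ZNF737 rests on few arrays: no member passed without the WTp53 array of experiment 4, 5, d, e or f or the tethered array of experiment d, and 2 or 3 passed without the vector or WTp53 array of experiment 0 or the ΔNp53:WTp53 array of experiment 5.

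A few members stood apart from the rest. ZNF676 and ZNF99 were lower in none of the 4 comparisons with vector, while 27 members were lower in all 4 and 31 in at least 1. Of all genes, 16.6% and 20.3% were lower with WTp53 and ΔNp53:WTp53 in the first set. In the second set 18.9% and 26.2% were lower with WTp53 and tethered WTp53, and joint counts over all genes were not made. ZNF676 read 2.55, 2.40 and 2.21 with vector and 2.33, 2.33 and 2.55 with WTp53 in the first set, values near the lowest on the arrays, whose 1st percentile was 2.15 to 2.24. ZNF99 read 2.37, 2.62 and 2.47 with vector and 2.65, 2.49 and 2.43 with WTp53. Neither gene's groups separated. In the second set ZNF676 read 3.86, 3.96 and 3.90 with vector and ZNF99 read 3.78, 3.63 and 3.66, where the 1st percentile was 3 to 3.1. Whether low intensity had a part in the missing falls was not tested. ZNF729 was about as dim in the first set (2.45, 2.58 and 2.64 with vector, 2.23, 2.45 and 2.38 with WTp53), where its difference of −0.21 ± 0.09 had a limma adjusted p of 0.13. With ΔNp53:WTp53 it read 2.31, 2.36 and 2.19, below its vector arrays without overlap, and was called lower by −0.27 ± 0.09 (limma adjusted p = 0.0452). That call was lost in 7 of the 9 fits that left out 1 array, all but those without vector or WTp53 of experiment 0. In the second set ZNF729 was lower with tethered WTp53 by −0.37 ± 0.09 (limma adjusted p = 0.00617) and missed the threshold with WTp53 (−0.25 ± 0.09, adjusted p = 0.0557). Leaving out genes whose mean was at or under the 25th percentile removed these 3 genes and ZNF726 in both sets, and ZNF681 in the first.

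ZNF708 and ZNF430 were not dim. ZNF708 read 4.60, 5.26 and 5.29 with vector and 4.45, 4.90 and 4.95 with WTp53 in the first set. The groups overlapped, and its difference of −0.28 ± 0.20 did not pass (limma adjusted p = 0.338). In the second set it read 7.05, 7.09 and 7.18 with vector and 6.54, 6.86 and 6.67 with WTp53, and the difference of −0.42 ± 0.09 passed (adjusted p = 0.00398). ZNF430 did the reverse. Its difference was −0.51 ± 0.14 in the first set (adjusted p = 0.0193), and in the second it read 7.80, 7.70 and 7.81 with vector and 7.67, 7.71 and 7.80 with WTp53, a difference of −0.04 ± 0.08 (adjusted p = 0.707). With tethered WTp53, ZNF430 read 7.01, 7.34 and 7.23, below all those arrays.

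ZNF208, ZNF257, ZNF493 and ZNF626 had further probe sets of a single symbol, 5 in all. In each of the 4 comparisons with vector, 5 of these 5 had a lower mean, by −0.38 to −1.29 with WTp53 in the first set and by −0.26 to −0.73 in the second. A probe set that carries the symbols of 8 members, ZNF728 among them, differed by −0.77 and −0.38 in those comparisons. One that carries ZNF98, ZNF492 and ZNF85 differed by −0.50 and −0.30. These values bear on ZNF98 and ZNF728 only jointly with the other genes named by the same probes.

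Experiment 0 differed from experiments 4 and 5 in these genes. Its vector array was the lowest of the 3 vector arrays for 26 of 33 members (78.8%, against 40.7% of all genes), and its ΔNp53:WTp53 array was the highest of its group for 27 (81.8%, against 35.9%). Within experiments 0, 4 and 5 the members' median difference of WTp53 from vector was −0.76, −1.11 and −1.16, and that of ΔNp53:WTp53 was −0.59, −1.27 and −1.24. All 6 within-experiment medians were negative. With all arrays kept, 29 members and 16.6% of all genes were lower with WTp53, and 29 members and 20.3% of all genes with ΔNp53:WTp53. Without the arrays of experiment 0, a setting added after the data had been seen, 30 members were lower with WTp53 (median −1.13) and 31 with ΔNp53:WTp53 (median −1.28). The comparison of ΔNp53:WTp53 with WTp53 then changed: 6 members were lower and 2 higher, in place of 0, and without only the ΔNp53:WTp53 array of experiment 0 there were 3 lower (ZNF90, ZNF730 and ZNF681). The 8 were ZNF506, ZNF253, ZNF93, ZNF682, ZNF90, ZNF737, ZNF626 and ZNF730, and the difference of ZNF93 was then −0.50 (limma adjusted p = 0.0328). The within-experiment medians of that comparison were 0.08, −0.17 and −0.06. In the second set the medians within d, e and f were −0.53, −0.51 and −0.62 for WTp53 against vector, −0.97, −0.82 and −0.92 for the tethered form against vector, and −0.47, −0.25 and −0.41 for the tethered form against WTp53.

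Members varied more between replicate arrays than genes at large. The median SD of the members was 0.24, 0.18 and 0.26 with vector, WTp53 and ΔNp53:WTp53 in the first set, against 0.10, 0.11 and 0.15 over all genes. In the second set it was 0.08, 0.06 and 0.17 with vector, WTp53 and tethered WTp53, against 0.06, 0.05 and 0.07. The tethered group was thus the most variable of its set for these genes. Its array of experiment d was the lowest of the group for 22 of 33 members, against 21.6% of all genes. The array of experiment d was also the lowest for 17 members with vector (25.4% of all genes) and for 14 with WTp53 (25.6%).

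Along the chromosome the falls ran from one end of the cluster to the other. From the first to the last member the RefSeq table lists 39 protein-coding genes, 36 of them members. In 3 runs of 11 measured members each, from the outer end inward, 11, 10 and 8 were lower with WTp53 in the first set, with medians of −1.06, −1.34 and −0.98. The second set likewise gave 11, 10 and 8, with medians of −0.57, −0.45 and −0.61. For tethered WTp53 against WTp53, 8, 8 and 7 members of the runs were lower. The inner run holds the dim genes ZNF676, ZNF729 and ZNF99.

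Genes on either side of the cluster moved in both directions. Of the 10 measured genes next to its outer end, 2 were lower and 2 higher with WTp53 in the first set (median 0.04), and of the 10 next to its inner end, which lie across the centromere on the long arm, 2 were lower and 2 higher (median −0.02). The second set gave 2 lower and 3 higher at the outer end, and 2 lower and 2 higher at the inner. Of all genes, 16.6% were lower and 15.2% higher with WTp53 in the first set, and 18.9% and 17.9% in the second. With ΔNp53:WTp53 the outer end gave 2 lower and 1 higher and the inner 2 and 2, against 20.3% and 15.7% of all genes. With tethered WTp53 the outer end gave 2 lower and 3 higher and the inner 4 and 3, against 26.2% and 21.6%. The cyclin E gene CCNE1, next to the inner end, was higher with WTp53 by 1.01 and 0.88 in the sets. It was chosen for mention after its value was seen.

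A list of KRAB corepressor genes and other chromatin genes moved in part. Beside TRIM28 and SETDB1 it holds broader chromatin genes, among them DNMT1, UHRF1, HELLS, EHMT1, SUV39H1, ATRX and DAXX. Its counts are therefore not counts of KRAB partners alone. Of 28 listed genes 27 were measured. With WTp53, 10 were lower and 1 higher in the first set (median −0.31), against 16.6% and 15.2% of all genes. In the second set 13 were lower and 0 higher (median −0.14), against 18.9% and 17.9%. TRIM28, which binds the KRAB domain, read 9.72, 9.86 and 9.81 with vector and 9.63, 9.67 and 9.72 with WTp53 in the first set. The groups overlapped, with a difference of −0.13 ± 0.09 (limma adjusted p = 0.326), and in the second set it was −0.07 ± 0.05 (adjusted p = 0.352). SETDB1, the methyltransferase, read 7.33, 7.66 and 7.70 with vector and 6.77, 6.54 and 6.44 with WTp53. It was lower by −0.98 ± 0.14 in the first set (adjusted p = 0.000597) and by −0.61 ± 0.07 in the second (adjusted p = 3.37e-05).

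ATF7IP, the partner that stabilizes SETDB1, was lower with WTp53 by −1.06 ± 0.19 (limma adjusted p = 0.00192) in the first set and by −0.76 ± 0.05 (adjusted p = 1.06e-06) in the second. TASOR, a subunit of the HUSH silencing complex, was lower by −0.95 ± 0.14 (adjusted p = 0.000648) and −0.61 ± 0.04 (adjusted p = 1.33e-06). ADNP, a chromatin protein of the ChAHP complex, was lower by −0.86 ± 0.12 (adjusted p = 0.000511) and −0.49 ± 0.05 (adjusted p = 2.64e-05). CBX5, heterochromatin protein 1 alpha, was lower by −0.54 ± 0.10 in the first set (adjusted p = 0.00269), and MORC2, an ATPase that works with HUSH, by −0.51 ± 0.05 in the second (adjusted p = 8.38e-06). Against WTp53, TRIM28 differed by −0.27 ± 0.09 with ΔNp53:WTp53 (adjusted p = 0.141) and was lower by −0.40 ± 0.05 with tethered WTp53 (adjusted p = 0.000246). SETDB1 lay on the other side of WTp53 in both: it differed by 0.29 ± 0.14 with ΔNp53:WTp53 (adjusted p = 0.323) and by 0.17 ± 0.07 with tethered WTp53 (adjusted p = 0.0804), and the latter passed in 2 of 18 alternatives, without tethered WTp53 of experiment f (adjusted p = 0.0336) and without vector of experiment e (adjusted p = 0.0434). Against vector, 19 of the 27 measured genes of this list were lower and 1 higher with ΔNp53:WTp53, beside 20.3% and 15.7% of all genes. With the tethered form 19 were lower and 0 higher, beside 26.2% and 21.6%. ΔNp53:WTp53 against WTp53 gave 0 lower and 0 higher in limma, beside 0.88% and 1.56%. In that comparison 7 of the 27 had an unadjusted p under 0.05, as did 3308 of the 18417 genes. The tethered form against WTp53 gave 15 lower and 2 higher, beside 17.5% and 14.9%.

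The zinc finger genes of 19q13 moved both ways. Of 132 listed genes 124 were measured. With WTp53, 84 were lower and 10 higher in the first set (median −0.96), against 16.6% and 15.2% of all genes. In the second set 85 were lower and 13 higher (median −0.43), against 18.9% and 17.9%. The 33 measured members of 19p12 held 0 that were higher in either set. ZNF221 read 8.41, 9.11 and 9.15 with vector and 6.17, 5.99 and 6.01 with WTp53 in the first set, a difference of −2.84 ± 0.18 (limma adjusted p = 1.14e-05). ZNF30 went the other way, from 6.25, 6.47 and 6.57 to 8.39, 8.83 and 8.79, a rise of 2.24 ± 0.15 (adjusted p = 1.38e-05), and it rose by 2.19 ± 0.07 in the second set (adjusted p = 8.32e-09). ZNF468 rose by 1.59 ± 0.11 in the first set (adjusted p = 1.38e-05). In the second set ZFP30 was lower by −1.60 ± 0.05 (adjusted p = 3.23e-09) and ZNF585A by −1.20 ± 0.05 (adjusted p = 3.77e-08).

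Against vector, 81 of the 19q13 genes were lower and 13 higher with ΔNp53:WTp53, beside 20.3% and 15.7% of all genes. With tethered WTp53 83 were lower and 18 higher, beside 26.2% and 21.6%. Tethered WTp53 against WTp53 gave 29 lower and 20 higher of 124 genes in 19q13 (median −0.02), beside the 23 lower and 0 higher of 33 members of 19p12 (median −0.38). Of all genes 17.5% were lower and 14.9% higher in that comparison. Among the 33 measured zinc finger genes outside the cluster that hold TCCAATCA, 6 were lower and 10 higher in it. ΔNp53:WTp53 against WTp53 gave 0 lower and 2 higher in 19q13 (median 0.15), beside 0.88% and 1.56% of all genes. The difference between the genes of 19q13 and those of 19p12 was not tested.

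**Figure D5:**
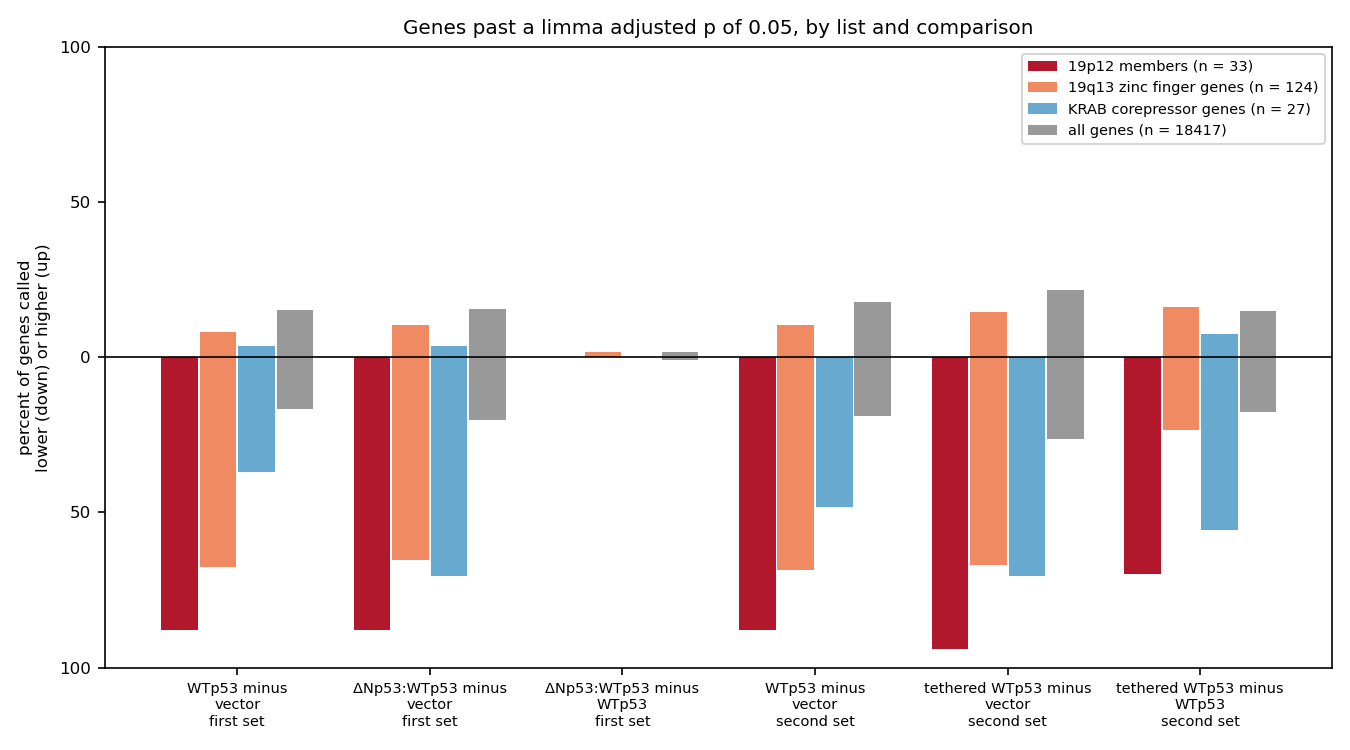
Percent of genes at a limma adjusted p under 0.05 that were higher (upward bars) or lower (downward bars) in each comparison, for the 33 measured 19p12 members, 124 zinc finger genes of 19q13, 27 KRAB corepressor genes and all 18417 genes. The 19p12 members have no upward bar, the 19q13 genes have both, and ΔNp53:WTp53 against WTp53 has almost no bars.

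The labels of p53 against vector were checked on CDKN1A, the cell cycle inhibitor, and MDM2, the p53 ubiquitin ligase, both p53 targets. Both rose with every p53 form, so they cannot tell which construct an array received. CDKN1A was higher than vector by 4.62 with WTp53 and 3.69 with ΔNp53:WTp53 in the first set, and by 3.13 with WTp53 and 3.22 with tethered WTp53 in the second. MDM2 was higher by 3.41, 3.09, 2.11 and 2.27. Both genes showed the smaller rise with WTp53 in the second set. The scales of the sets differ, and a relation of these rises to the size of the members' falls was not tested. The lists of cell type markers were set against the median of the first set's vector arrays (4.90). Above it lay 2 of 6 epithelial markers (KRT18, 10.3 ± 0.19, SD, n = 3, and KRT8), 4 of 4 mesenchymal markers (VIM highest, 10.9 ± 0.18), 3 of 7 leukocyte markers (CD68, 8.85 ± 0.59, TYROBP, 5.75 ± 0.09, and CD79A, 4.93 ± 0.04) and 1 of 8 fibroblast and endothelial markers (COL1A1, 5.67 ± 0.15). EPCAM, CDH1, PTPRC and DCN, which define epithelium, leukocytes and fibroblasts, lay below it. Of the 8 fibroblast and endothelial markers, limma called 0 with WTp53 against vector in either set. At an unadjusted p under 0.05 there were 0 and 1, against 7502 and 8073 of the 18417 genes. Against vector, with WTp53 and ΔNp53:WTp53 in the first set and WTp53 and tethered WTp53 in the second, 2, 0, 2 and 1 of the 7 leukocyte markers were higher and 0, 0, 1 and 1 lower. Of the 4 mesenchymal markers 1, 1, 3 and 4 were higher and 1, 0, 0 and 0 lower, and of the 6 epithelial markers 0, 1, 2 and 2 were higher and 0 lower in any. Of all genes, 15.2%, 15.7%, 17.9% and 21.6% were higher in those 4 comparisons, and 16.6%, 20.3%, 18.9% and 26.2% were lower. The part of the markers in the falls was not tested. In an array of bulk RNA, less RNA per cell and fewer expressing cells cannot be told apart.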

How the data were processed

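The values are log2 intensities that the authors deposited, made with RMA, which corrects background, normalizes by quantiles and summarizes probes, in Affymetrix Expression Console per the submitters' processing notes, in versions not given in the sources used here. The sets are on different scales, so levels were compared only within a set. Of 33297 probe sets, 19460 carry 1 gene symbol in the platform's probe table, which left 18417 genes (highest mean per gene). No filter on dim genes was applied, and no signal over background was derived; the number of arrays limits the precision. Each set's 9 arrays were fitted on their own as 3 group means with limma 3.58.1 under R 4.3.3, leaving 6 residual degrees of freedom, because the spread differs between sets; differences between sets used all 18 arrays. Tests were two-sided with Benjamini-Hochberg adjustment over all genes and a threshold of 0.05. An exact permutation test of 3 against 3 arrays cannot go below 0.1. Members and lists were chosen with earlier results of these data known. The script was tested on simulated data.

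Named with full values are ZNF91 and ZNF93, ZNF14 and ZNF254, the 3 largest falls and rises among passing members of each comparison, TRIM28 and SETDB1, the 4 other corepressor genes and 3 genes of 19q13 with the smallest p against vector for WTp53 of each set, and CDKN1A and MDM2; other genes were named after their values were seen. Same-experiment arrays of the first set had residual correlations of 0.11 to 0.57 (9 of 9 above 0.1). Its pairs from different experiments ran from −0.50 to 0.35, with 6 of 18 above 0.1, all between experiments 4 and 5. The correlations thus set experiment 0 apart, but do not show that arrays of experiments 4 and 5 pair by experiment. Same-experiment correlations of the second set ran from −0.04 to 0.13, and the letters were treated as labels. Promoters are those of RefSeq on GRCh38.p14, matched by symbol. The transfected gene is not reported here.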

Additional observations from a re-analysis of the deposited data

Results flagged for a closer look

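The effect of WTp53 against vector differed between the sets in 8 members by the fit of all 18 arrays in limma, each with the larger fall in the first set. The difference of effects, first set minus second, was −0.90 in ZNF14 (adjusted p = 0.00888), −0.67 in ZNF101 (0.0107), −0.69 in ZNF85 (0.0131) and −0.94 in ZNF431 (0.0342). It was −0.91 in ZNF738 (0.00675), −0.60 in ZNF429 (0.0468), −0.87 in ZNF43 (0.0478) and −0.68 in ZNF730 (0.0215). After joint quantile normalization ZNF14 (−0.69), ZNF101 (−0.53), ZNF85 (−0.53) and ZNF738 (−0.74) passed. The sets differ in scale, in transfections and in whatever else separated them, which cannot be told apart.

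In ZNF737 the difference of ΔNp53:WTp53 from WTp53 and that of tethered WTp53 from WTp53 were unlike, by 1.08 (adjusted p = 0.0281).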

How the results depend on the processing

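Against vector the counts of lower members stayed within 1.5 times those reported under every alternative run: 1 fit of all 18 arrays, the replicate block, joint quantile normalization, centred medians, the filter on dim genes, the mean of probe sets, 6 arrays only, an intensity trend, a threshold of 0.01 and leaving out 1 array. With 1 array left out they ran from 26 to 30 for WTp53 and for ΔNp53:WTp53 in the first set, 27 to 29 for WTp53 and 31 to 32 for tethered WTp53 in the second, and 19 to 25 for tethered WTp53 against WTp53. With all 18 arrays in 1 fit, tethered WTp53 against WTp53 gave 8 members in place of 23 (1855 genes in place of 5970), ΔNp53:WTp53 against WTp53 gave 1 in place of 0 (2693 genes in place of 449), and WTp53 against vector in the second set gave 24 in place of 29 (3603 genes in place of 6769). ΔNp53:WTp53 against WTp53 gave 0 to 3 members with 1 array left out, and 8 (2461 genes) without experiment 0; it called 806 genes with the replicate block and 96 on its 6 arrays alone, with 0 members in both. The difference of WTp53 effects between sets gave 4 members after joint quantile normalization (1372 genes in place of 2300) and 4 to 13 with 1 array left out, and the difference of construct effects gave 2 with one variance per set and 0 to 3 with 1 array left out.

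With the experiment as a replicate block the paired counts in the first set were 29 for WTp53 and 30 for ΔNp53:WTp53 against vector and 0 between them. In the second set, where the letters were otherwise treated as labels, they were 30, 31 and 26, and the differences of effects gave 10 and 1. The causes of these shifts were not tested. No value of a named gene or member that passed changed sign (0 reversals). At the threshold of 0.01 the calls against vector were 24 and 26 members in the first set (3746 genes in place of 5862 for WTp53), and tethered WTp53 against WTp53 gave 18 (3649 genes). In the first set ZNF676, ZNF99 and ZNF729 lie near the lowest intensities, and the part of this in their differences was not tested. In the second set, whose 1st percentile was 3 to 3.1, ZNF729 read 5.09, 4.80 and 5.21 with vector. There ZNF676 read 3.86, 3.96 and 3.90 and ZNF99 3.78, 3.63 and 3.66. Close copies may share probes.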
